A study of Homo sapiens with 24 samples.

Results

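ZR-75-30 is an estrogen receptor-positive (ER+) human breast carcinoma line that also carries an amplified ERBB2 gene, and its response to glucose was read from 8 RNA-Seq profiles. The comparison set 4 cultures kept for 48 hours in medium with 25 mM glucose (high) against 4 cultures kept in 5 mM glucose (low, the control condition), and it took every gene with a normalized read count of at least 0.5 in 4 or more of the 8 cultures, 15834 of the 18889 genes in the table. These were 8 of the 24 samples of the series, whose other 16 came from the ER+ lines MDA-MB-175 and HCC1500 under the same conditions. The study grew ZR-75-30 cells, obtained from ATCC and without any genetic change made for the experiment, in RPMI with fetal bovine serum, conditioned them in low glucose and then changed the medium to low or high glucose without serum. All 8 cultures therefore shared the line, the plating density and the lack of serum, and a mannitol control for osmolarity is not among these samples. The replicates are numbered 1 to 4 in each condition, but nothing says that they were started independently, so p-values measure the spread between these cultures, which may be technical.

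Glucose is taken up by GLUT transporters and phosphorylated by hexokinase, and glucose 6-phosphate lets the paired factors MondoA or ChREBP and MLX bind carbohydrate response elements, of which the TXNIP promoter holds the best known. Glucose carbon also feeds the pentose phosphate pathway, which supplies ribose and NADPH, and the hexosamine pathway, which supplies UDP-GlcNAc for the glycosylation of secreted mucins. Luminal breast cells such as these depend on the factors ESR1, GATA3 and FOXA1, and divide through the E2F program of the G1/S transition and the MYBL2 and FOXM1 program of mitosis.

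The deposited value of a gene is its number of reads divided by 1 factor per culture, and is called a normalized read count here. Between 9463981 and 13113305 reads lay behind each low glucose culture and between 10611110 and 17871065 behind each high glucose culture, and 3 reads, taken as the limit of detection, were worth 1.275 to 2.29. Each culture correlated with the others of its own condition at a mean Pearson r of 0.989 to 0.993 across genes, and with those of the other condition at 0.965 to 0.969. By this measure no culture stood apart. On the reads, chi-square per degree of freedom between 2 cultures of a condition was 2.05 to 3.73 at low and 2.02 to 7.12 at high glucose. The largest values were those of high glucose replicate 1 against replicates 3 (5.49) and 4 (7.12). Luminal markers were abundant at low and high glucose, with KRT8 at means of 18786 and 14822, GATA3 at 1931 and 1785, and ERBB2, the amplified receptor gene, at 69060.3 and 59491. CDH1, the epithelial cadherin, was an exception at only 55.6 and 56.5. Of the markers of other cell types, 6 of the 7 fibroblast genes had means under 0.5 in both conditions, DCN and FAP among them at 0 in every culture, while COL1A1 had means of 105 and 90.2. Among the endothelial markers VWF had means of 8.04 and 5.14 and the others measured stayed under 0.6. The leukocyte genes CD14 and LYZ were under 0.6, the adipocyte gene FABP4 was at 0 and PLIN1 had means of 2.74 and 2.12. Of the basal list, KRT17 and TP63 had means of at most 2.35, whereas CDH3, which luminal tumors may also express, had 384 at low and 483 at high glucose. PTPRC, CD3E, PECAM1, KRT5 and KRT14 were not analysed here. CD68, which lysosomes of many cells also carry, was the only leukocyte marker tested, and its values are given with the lysosomal genes.

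A large part of this transcriptome differed between the glucose conditions. With limma on log2(value + 1) and a Benjamini-Hochberg adjusted p under 0.05, 46.0% of the tested genes were called, made up of 23.4% of tested genes that were higher and 22.7% that were lower at high glucose. Changes were mostly small, since the median size of a called log2 change was 0.42, the median over all tested genes was 0.01 and the median standard error was 0.10. Only 82 genes rose and 19 fell by 2 or more log2 units. The 2 conditions did not overlap for 6656 genes, or 42.0% of those tested. In 10 classes of exon length, over 11733 genes with a mean of at least 10, the median change stayed between -0.02 and 0.01. Every log2 change below is high minus low glucose on the log2(value + 1) scale, which understates the change of weakly expressed genes. Values after ± are standard errors, and adjusted p-values are from limma over all 15834 genes unless another tool is named. The words rose and fell mark genes whose adjusted p was under 0.05. In these bulk cultures fewer cells of a type and less RNA per cell cannot be told apart.

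**Figure D1:**
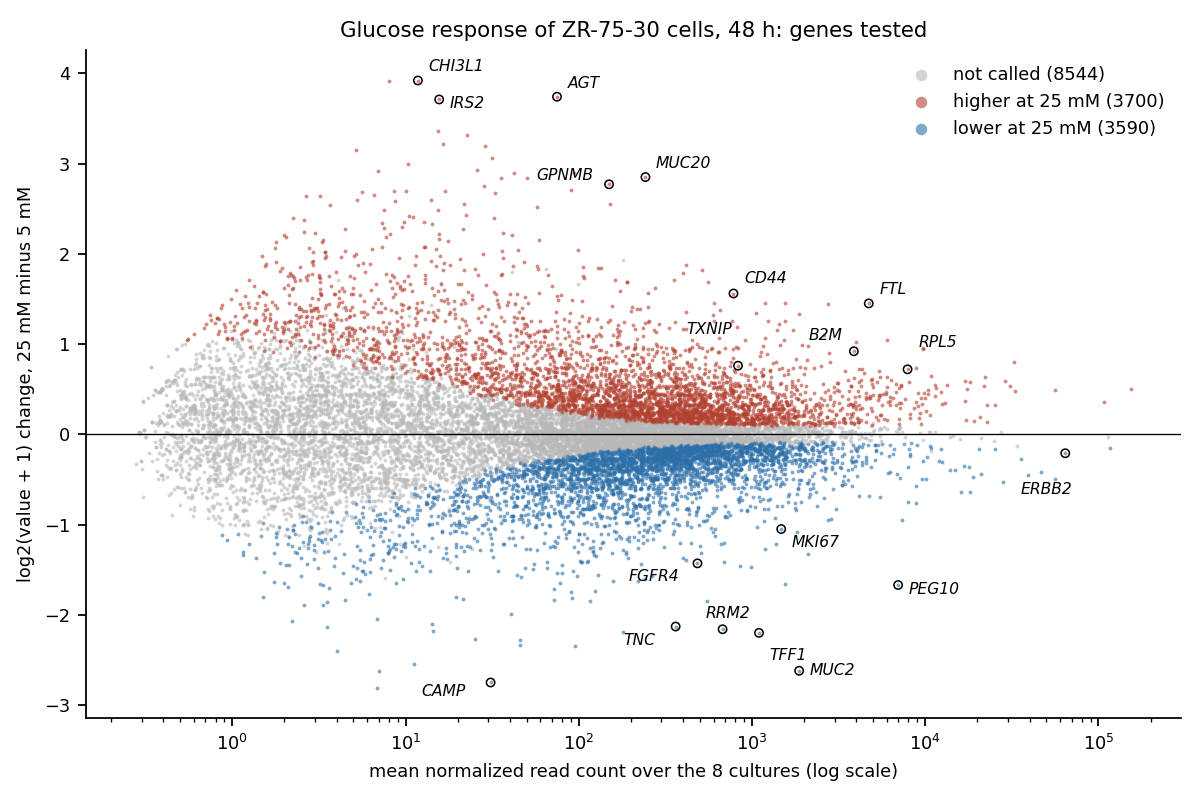
Log2(value + 1) change from 5 to 25 mM glucose against the mean normalized read count of the 8 ZR-75-30 cultures (log scale), 1 point per tested gene, with red points higher, blue points lower and gray points not called. MUC2, TFF1, PEG10 and RRM2 combine high levels with large falls, and FTL and MUC20 stand out among the rises.

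TXNIP, a brake on glucose uptake that glucose induces, served as a check of the labels. Its normalized read counts were 648, 606, 603 and 605 in low glucose replicates 1 to 4 and 1077, 1058, 1025 and 1019.8 in high glucose replicates 1 to 4, a log2 change of 0.76 ± 0.04 (SE; adjusted p = 3.6e-11). ARRDC4, the arrestin most closely related to it, had 63.7, 63.7, 62.1 and 59.5 at low and 87.5, 73.6, 96.9 and 75.4 at high glucose, a log2 change of 0.41 ± 0.11 (SE; adjusted p = 0.0047). The lowest high glucose culture lay above the highest low glucose culture for each gene. Of the 10 genes of this group that were tested, 6 rose and 2 fell, beside the 23.4% and 22.7% of all tested genes, with a median log2 change of 0.30. MLXIPL, which encodes ChREBP, rose from 11.6, 9.67, 12.5 and 12.2 to 18.2, 23.6, 27.6 and 28.1, a log2 change of 1.01 ± 0.21 (SE; adjusted p = 0.00056), and MLX, the shared partner, rose by 0.30. MLXIP, which encodes MondoA, had means of 255 and 267 and was not called (adjusted p = 0.4).

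The promoters of both arrestin genes are shown because they hold strings that were searched for as parts of a carbohydrate response element. RefSeq windows (GRCh38.p14) run from 250 bases before to 50 bases after the start. In the first line, from chr1:145996530-145996829 on the minus strand, capitals mark the half-element CACGAG, found 88 and 77 bases before the start. In the second, from chr15:97960453-97960752 on the plus strand, they mark the E-box CACGTG, 210 bases before it.
TXNIP: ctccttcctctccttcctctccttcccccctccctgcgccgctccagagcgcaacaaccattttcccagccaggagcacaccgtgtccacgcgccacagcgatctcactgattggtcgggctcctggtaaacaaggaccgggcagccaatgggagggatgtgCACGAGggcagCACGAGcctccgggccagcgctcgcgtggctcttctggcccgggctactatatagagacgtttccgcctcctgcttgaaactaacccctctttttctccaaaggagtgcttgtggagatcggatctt
ARRDC4: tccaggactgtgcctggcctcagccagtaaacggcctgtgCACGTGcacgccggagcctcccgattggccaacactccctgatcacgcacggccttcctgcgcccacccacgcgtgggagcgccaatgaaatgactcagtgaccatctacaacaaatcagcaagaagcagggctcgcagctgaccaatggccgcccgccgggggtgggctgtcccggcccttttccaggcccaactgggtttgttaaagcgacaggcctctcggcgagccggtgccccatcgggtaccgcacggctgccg
On either strand, CACGAG occurred in 6.8% and CACGTG in 7.3% of all 35116 RefSeq promoter windows of this length, and neither string contains the other. The ARRDC4 window held 1 CACGTG and no CACGAG, and another RefSeq window of TXNIP held neither. CACGTG was also in the CCNB1 and MCM2 windows and CACGAG in the TOP2A window, genes that fell. These matches describe the sequence and do not show that a factor binds there.

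Rises and falls were ranked among called genes with a mean of at least 20 in the higher condition and conditions that did not overlap. The largest rises were in genes that were weakly expressed at low glucose. CHI3L1, which encodes the secreted glycoprotein YKL-40, had 0.554, 0, 0.570 and 1.53 at low glucose, under the limit of detection, and 21.9, 22.3, 24.2 and 23.3 at high glucose, a log2 change of 3.92 ± 0.31 (SE; adjusted p = 7.8e-09). The reads were 4 at low and 166 at high glucose. Adjusted for the factors of the cultures, their ratio was 38.1 with a 95% interval of 14.6 to 141.6 that covers counting error only. IRS2, the adaptor that passes insulin and IGF-1 receptor signals to PI3K, rose from 2.22, 0, 1.14 and 3.05 to 38.5, 21.6, 26.4 and 32.2, a log2 change of 3.71 ± 0.37 (SE; adjusted p = 1.5e-07). Its 10 reads at low and 215 at high glucose gave a ratio of 19.8 (10.5 to 41.8), adjusted in the same way. For both genes the conditions were far apart, although the low glucose values rest on few reads. ATF3, a stress-induced factor, went from 6.09, 5.69, 2.85 and 0.763 to 41.7, 43.2, 42.9 and 37.7, a log2 change of 3.32 ± 0.34 (SE; adjusted p = 2.4e-07). SULT1C2, a sulfotransferase, went from 6.09, 3.41, 2.85 and 0 to 29.7, 31.1, 25.1 and 34.3 and PGM5, a phosphoglucomutase-like protein of cell adhesion sites, from 7.20, 3.41, 3.42 and 6.11 to 57.3, 46.6, 44.2 and 62.4, changes of 3.22 ± 0.42 and 3.19 ± 0.24. ADM, the vasodilator adrenomedullin, had 6.65, 4.55, 6.84 and 6.11 and 57.3, 58.1, 53.97 and 58.9, a 9.46-fold difference of means and a log2 change of 3.06 ± 0.19 (SE; adjusted p = 2.8e-10). GEM, a small GTPase, rose by 2.84 ± 0.19, the engulfment adaptor GULP1 by 2.93 ± 0.28 and the RNA-binding protein gene SAMD4A by 2.90 ± 0.14, from means of 11.9, 5.72 and 21.9. AGT, which encodes angiotensinogen, reached 149.5, 156, 150.0 and 105 from 11.1, 10.2, 11.4 and 6.11, with high glucose replicate 4 below the rest of its condition. AGT shares 1127 exon bases with COG2, and NOS3, the endothelial nitric oxide synthase gene, which rose by 2.89 ± 0.17, shares 786 with ATG9B. Because it is not stated whether counting used strand, reads of such overlapping genes may have been mixed and both values are uncertain. 

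The largest falls under the same limits were those of CAMP and MUC2. MUC2 (chromosome 11 of GRCh37, from 1074875 to 1104416), the gel-forming mucin of intestinal goblet cells, had normalized read counts of 3214, 3428, 3340.4 and 2897 at low glucose and 491, 516, 562 and 517 at high glucose. The high glucose mean was 6.17-fold lower, a log2 change of -2.62 ± 0.05 (SE; adjusted p = 9.4e-17). TFF1 (chromosome 21, from 43782391 to 43786644, minus strand), an estrogen-induced trefoil peptide secreted with mucins, fell from 1858, 1785, 1829.7 and 1739 to 382, 390.2, 390.1 and 404, 4.61-fold and a log2 change of -2.20 ± 0.04 (SE; adjusted p = 3e-17). Values within a condition differed little for both genes. Separate conditions were required of every gene in this ranking. CAMP, the antimicrobial peptide cathelicidin, fell from 58.2, 46.6, 62.1 and 51.9 to 7.29, 6.08, 8.07 and 7.54, a log2 change of -2.75 ± 0.18 (SE; adjusted p = 8.9e-10). CRYM, a thyroid hormone-binding protein, fell by 2.35 and DIO2, the deiodinase that activates thyroid hormone, by 2.10, from means of 159 and 23.7. ACOX2, a peroxisomal oxidase of bile acid intermediates, fell by 2.28, the adhesion protein gene VSIG1 by 2.18, ATP13A4 by 1.99 and the metalloprotease gene ADAMTS15 by 1.85. TNC, the matrix protein tenascin C, had 547, 619, 649 and 549 at low and 127, 138, 139 and 132 at high glucose, a log2 change of -2.13 ± 0.06 (SE; adjusted p = 1.7e-14).

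Among genes with a mean of at least 1000, the largest rises were in SCGB2A1, FTL, WSB1, GDF15, HSPB1 and NDRG1. SCGB2A1, the secreted mammaglobin B, rose from 859.8, 804, 804 and 847 to 2339, 2248, 2230.3 and 2288, a log2 change of 1.46 ± 0.04 (SE; adjusted p = 2.7e-15). FTL (chromosome 19, from 49468566 to 49470136), the light chain of the iron store ferritin, rose from 2534, 2534, 2639 and 2395 to 6984, 6994, 7222 and 6450.5, a log2 change of 1.45 ± 0.04 (SE; adjusted p = 9.8e-15), and the heavy chain gene FTH1 rose by 0.54. WSB1, a ubiquitin ligase component, had the widest spread of the group, with 624, 668, 586 and 653 at low against 1344, 1775, 1679.5 and 2235 at high glucose and a log2 change of 1.45 ± 0.10 (SE; adjusted p = 8.9e-10). The conditions were separate for each of these genes, beside 42.0% of all tested genes without overlap. Besides MUC2 and TFF1, the largest falls at this level included that of PEG10, an imprinted gene derived from a retrotransposon, from 10443, 10835, 10687 and 10487 to 3294, 3265, 3353 and 3408 and a log2 change of -1.67 ± 0.03 (SE; adjusted p = 9.4e-17). SLC12A2, the sodium, potassium and chloride cotransporter, fell from 2941, 3026, 2958 and 3042 to 1274, 1121, 1148 and 1225, a log2 change of -1.33 ± 0.04 (SE; adjusted p = 2.9e-14). PEG10 shares 219 exon bases with SGCE.

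**Figure D2:**
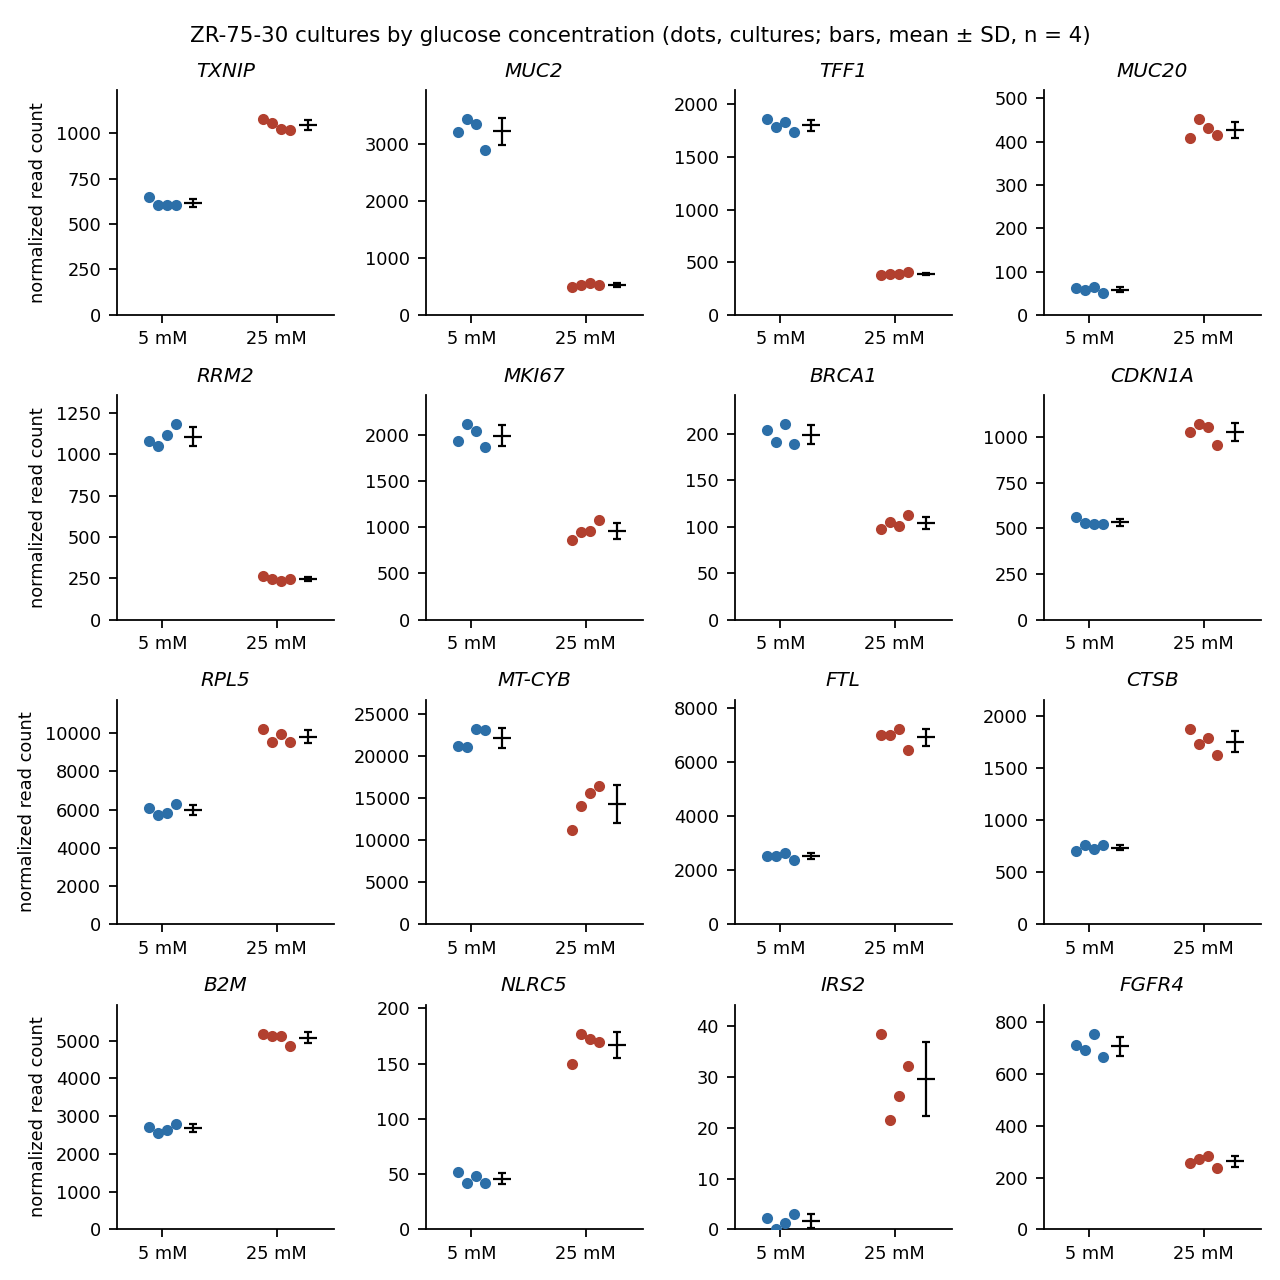
Normalized read counts of 16 genes in the 8 ZR-75-30 cultures (dots; blue, 5 mM; red, 25 mM glucose), with the mean ± SD of each condition (n = 4) beside them and every axis starting at 0. In all 16 panels the cultures of the 2 conditions are separate, and the spread is widest for IRS2 and MT-CYB.

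To see which processes these genes belonged to, lists of genes were counted against the shares of all tested genes that rose (23.4%) or fell (22.7%). The members of a list share cultures and are not independent replicates.

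**Figure D3:**
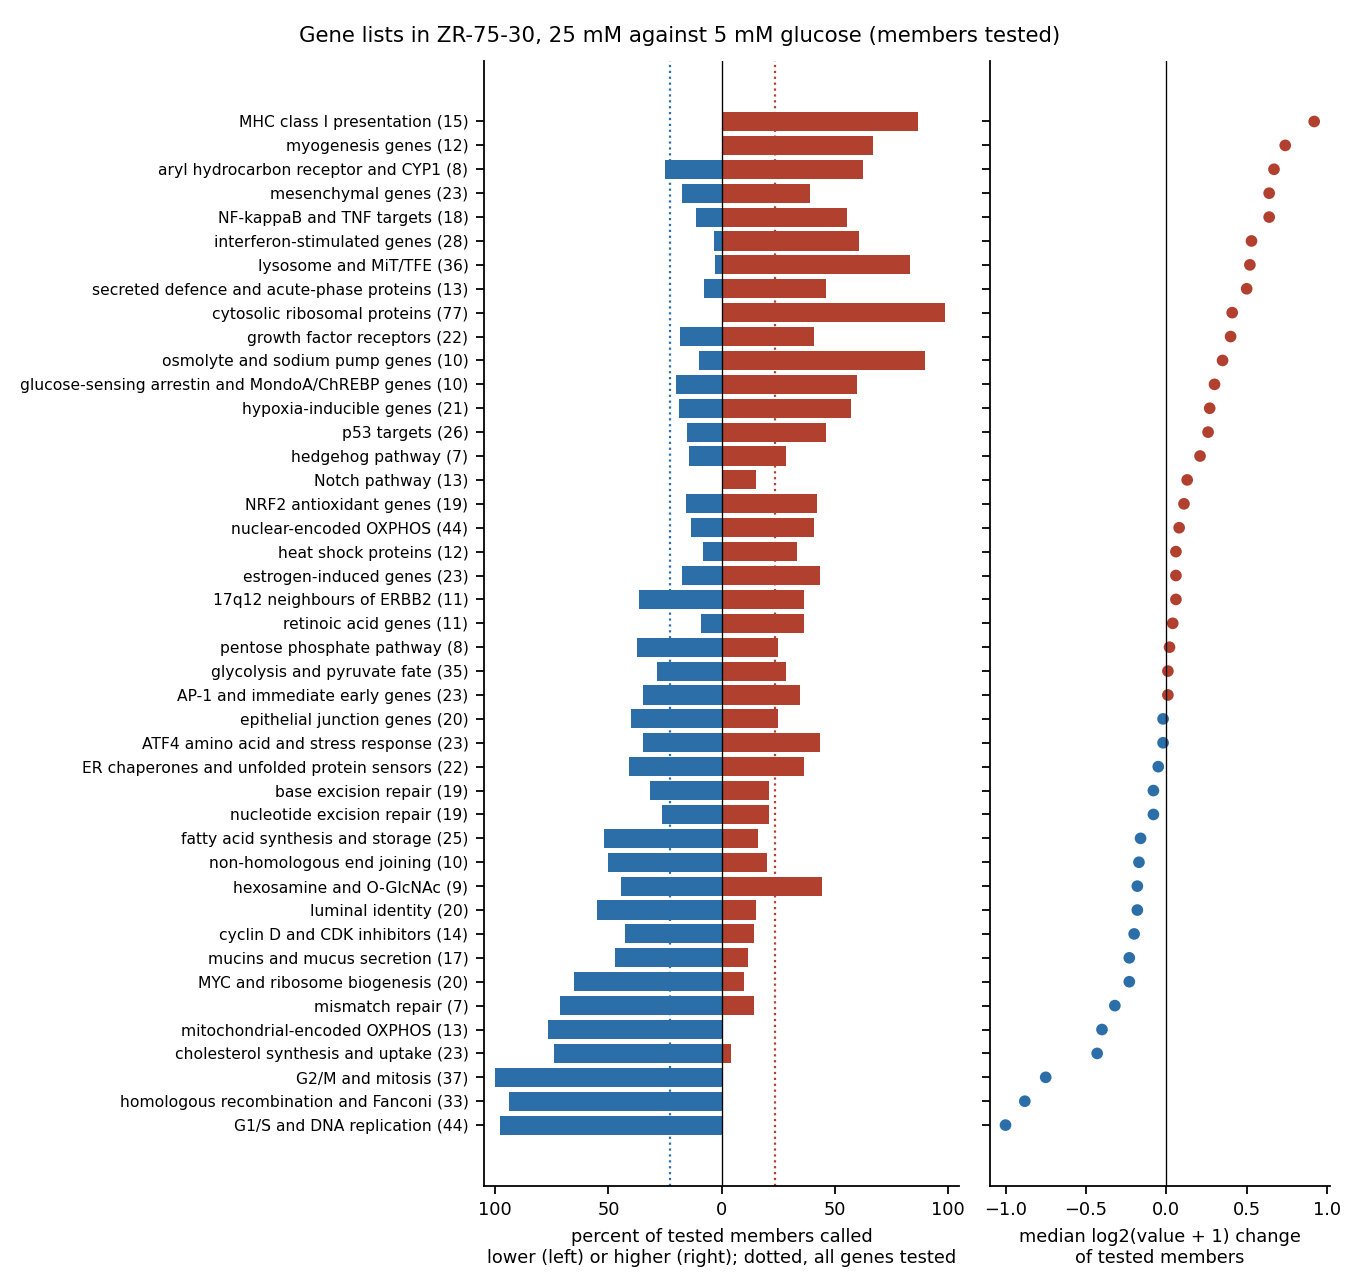
Share of tested members (number in parentheses) called lower (blue, left) or higher (red, right) in lists with at least 7 tested members, with dotted lines at the 22.7% and 23.4% of all tested genes, and the median log2(value + 1) change of each list at the right. Cell cycle and recombination lists stand at the lower end, and ribosomal protein, MHC class I, lysosome and osmolyte lists are mostly higher.

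The mucus program did not move as 1 group. Of 17 tested genes of mucins and mucus secretion, 8 fell and 2 rose, with a median of -0.23. MUC5AC, another gel-forming mucin, fell from a mean of 21.00 to 6.62 (-1.52, adjusted p = 5.3e-05), whereas MUC5B and MUC6 were under the limit of detection in both conditions. The trefoil gene TFF3 fell from 10043, 9948, 10009.9 and 8785 to 5581, 5220.3, 5168 and 4242, and AGR2, the disulfide isomerase that folds mucins, from 11102, 10868, 10978 and 11486 to 6853, 6541, 6570.2 and 6326, changes of -0.95 ± 0.07 and -0.76 ± 0.04. CLCA2, a regulator of chloride currents, fell by 2.19 and CREB3L1, a factor of secretory cells, by 0.55. MUC1, the membrane mucin most used as a breast cancer marker, had 1358, 1421, 1417 and 1283 at low and 1309.7, 1362, 1443 and 1370.0 at high glucose, a log2 change of 0.00 ± 0.04 (SE; adjusted p = 0.98), and the values of the conditions overlapped. In contrast, MUC20 (chromosome 3, from 195447755 to 195467994), a membrane mucin that binds the MET receptor, rose from 60.9, 58.01, 63.8 and 51.1 to 409, 451, 431 and 416, 7.30-fold and a log2 change of 2.85 ± 0.08 (SE; adjusted p = 5.1e-15). MUC20 shares 1851 exon bases with an overlapping transcript and has a close pseudogene copy, so its level is uncertain. SPDEF, the factor that drives mucous cell differentiation, had 4111, 4137, 4112 and 3689 and 4669, 4636, 4669 and 3958 and a small called rise of 0.16 (adjusted p = 0.018) that was lost without low glucose replicate 4 (0.12, adjusted p = 0.066) and without high glucose replicate 1, 2 or 3.

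Luminal genes fell more often than they rose, by small amounts, with 11 of 20 lower, 3 higher and a median of -0.18. The luminal keratin KRT19 fell from 10123, 9726, 10582 and 9252 to 5900.3, 6183, 6503 and 5098, a log2 change of -0.75 ± 0.06 (SE; adjusted p = 8.3e-09), KRT18 by 0.40 and KRT8 by 0.35, while FOXA1 fell by 0.31 and XBP1, a factor of secretory capacity, by 0.47. ESR1, the estrogen receptor gene, had 606, 598, 626 and 643 at low and 598, 543, 533 and 604 at high glucose, a log2 change of -0.12 ± 0.05 (SE; adjusted p = 0.055). The ESR1 values overlapped, and the gene would have been called without high glucose replicate 1 (-0.14, adjusted p = 0.035) or replicate 4 (-0.15, adjusted p = 0.018). Among other settings, it was also called with edgeR (adjusted p = 0.045) and after rescaling to the same total (limma, adjusted p = 0.017). With DESeq2 it was not called (adjusted p = 0.098). PGR, the progesterone receptor gene, was at 0.554, 0.569, 0.570 and 0.763 and 2.60, 2.70, 4.25 and 0, near the limit of detection, and was called only in the fit without high glucose replicate 4 (1.35, adjusted p = 0.0083). ELF3, an epithelial ETS factor, moved the other way, from 871, 839, 885 and 842 to 1900.3, 2039, 2035 and 1735, a log2 change of 1.16 ± 0.05 (SE; adjusted p = 1.1e-12). ELF3 shares 1328 exon bases with other transcripts.

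Estrogen-induced genes did not follow TFF1. Of 23 tested, 10 rose and 4 fell, with a median of 0.06. GREB1, a cofactor of the receptor, rose from a mean of 213 to 317 (0.58, adjusted p = 5.2e-07), and SUSD3, a membrane protein, rose by 0.88. MYB, a proliferation factor of luminal cells, fell by 0.63. CCND1, which encodes cyclin D1, had 4685, 4506, 4612 and 4498 and 4642, 4356, 4534 and 4298, a log2 change of -0.04 ± 0.04 (SE; adjusted p = 0.41).

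Genes of DNA replication and cell division fell together, and the conditions were separate for nearly all of them. Of 44 tested genes of the G1/S transition and DNA replication, 43 fell, none rose, and the median log2 change was -1.0. The exception was CDT1, a licensing factor, with means of 68.6 and 72.2 (0.08, adjusted p = 0.61). The transition factors and cyclins had a median of -1.64, origin and helicase genes -0.92, polymerase and clamp genes -0.88 and nucleotide synthesis genes -1.18. RRM2 (chromosome 2, from 10260825 to 10351851), the regulated subunit of ribonucleotide reductase, fell from 1080.3, 1049, 1114 and 1181 to 263, 244, 233 and 247, a log2 change of -2.16 ± 0.05 (SE; adjusted p = 6.4e-16). CCNE2, which encodes cyclin E2, fell by 1.81 and CDC25A, the phosphatase that starts S phase, by 1.75, although CCNE2 shares 1629 exon bases with INTS8. The helicase gene MCM2 fell from 992, 929.8, 980.4 and 834 to 526, 540.1, 517 and 469, and PCNA, the clamp of the replication fork, from 2471, 2391, 2395 and 2557 to 1186, 1121, 1206 and 1138, changes of -0.86 ± 0.06 and -1.08 ± 0.04. No high glucose culture reached the low glucose values of any of the 43 genes, beside 42.0% of all tested genes without overlap in either direction.

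All 37 tested G2/M and mitosis genes fell, with a median of -0.75 and a range of -1.20 to -0.22. MKI67, the proliferation antigen Ki-67, fell from 1931, 2111, 2043 and 1865 to 859, 948, 954 and 1077, a log2 change of -1.05 ± 0.06 (SE; adjusted p = 4.1e-11). TOP2A, the mitotic topoisomerase, fell from 1076, 1125, 1092 and 1055 to 657, 639, 638 and 683, and CCNB1, which encodes cyclin B1, from 752, 754, 768 and 735 to 496, 504, 513 and 511, changes of -0.73 ± 0.04 and -0.57 ± 0.04. In all 37 genes the 4 high glucose cultures lay below the 4 low glucose cultures. Of all tested genes, 42.0% had no overlap in either direction. The kinetochore gene NDC80, the checkpoint kinase gene BUB1B and the spindle gene DLGAP5 fell most, by 1.20, 1.20 and 1.08. NEK2 and CDC25B fell least, by 0.22 and 0.23.

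The promoter of 1 gene from each program is shown, chosen among windows that hold the letters searched for. In the TOP2A window (chr17:40417847-40418146, minus strand) capitals mark the cell cycle homology region TTTGAA and the CCAAT box on either strand. In the CDC6 window (chr17:40287629-40287928, plus strand), a licensing factor gene that fell by 1.32, they mark the E2F string TTTGGCGC.
TOP2A: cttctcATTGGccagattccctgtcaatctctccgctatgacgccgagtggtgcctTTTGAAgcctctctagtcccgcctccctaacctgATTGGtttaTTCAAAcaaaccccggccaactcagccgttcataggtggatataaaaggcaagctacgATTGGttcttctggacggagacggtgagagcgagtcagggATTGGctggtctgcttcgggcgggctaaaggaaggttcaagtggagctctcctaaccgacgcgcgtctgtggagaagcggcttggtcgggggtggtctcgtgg
CDC6: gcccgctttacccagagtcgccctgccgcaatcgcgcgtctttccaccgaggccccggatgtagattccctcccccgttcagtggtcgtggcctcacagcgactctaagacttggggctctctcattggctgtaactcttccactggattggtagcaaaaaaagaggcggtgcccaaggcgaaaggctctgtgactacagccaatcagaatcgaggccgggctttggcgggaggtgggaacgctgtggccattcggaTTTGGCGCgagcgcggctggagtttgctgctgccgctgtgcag
TOP2A held 2 matches to TTTGAA and 4 to CCAAT. The CCNB1 window held no TTTGAA, and those of MCM2 and RRM2 held none of the E2F strings. RefSeq windows were found for 31 of the 37 G2/M genes and 38 of the 44 G1/S genes. TTTGAA was in 58.5% of the 41 G2/M windows, 3.8% of the 52 G1/S windows and 15.2% of all windows, and CCAAT in 73.2%, 53.8% and 34.6%. The E2F strings TTTCCCGC, TTTGGCGC and TTCGCGCC, searched together, were in 42.3% of G1/S windows, 4.9% of G2/M windows and 3.2% of all windows. Both strands were read and none of these strings contains another. The lists were drawn up with knowledge of such regulation, so these shares only describe the genes counted.

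Genes of homologous recombination and the Fanconi pathway, which repair DNA breaks and crosslinks in dividing cells, were lower, with 31 of 33 called, none higher and a median of -0.88. BRCA1 fell from 204, 192, 210.2 and 189 to 97.4, 105, 101 and 113, a log2 change of -0.93 ± 0.07 (SE; adjusted p = 7.6e-09). BRCA2 fell from 104, 105, 107 and 111 to 59.4, 58.1, 51.9 and 54.1, a log2 change of -0.92 ± 0.09 (SE; adjusted p = 2.1e-07). The 5' exonuclease gene EXO1 and the helicase gene BLM fell most, by 1.63 and 1.57. RAD50 and FANCE, with log2 changes of -0.09 and -0.26, were not called. In all but 1 of the 33 genes the conditions did not overlap, beside 42.0% of all tested genes.

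The other repair pathways were mixed. In mismatch repair 5 of 7 genes fell and MLH3 rose by 0.25. MSH6 fell by 0.42, but it shares 4022 exon bases with FBXO11. Of 19 base excision repair genes, 6 fell and 4 rose, with a median of -0.08. The uracil glycosylase gene UNG fell by 0.68 and NEIL3 by 0.75, while NEIL1, which shares 1832 exon bases with other genes, rose by 0.78. Nucleotide excision repair had 5 of 19 genes lower and 4 higher, with a median of -0.08, shares near those of all genes. Of 10 genes of non-homologous end joining, 5 fell and 2 rose. PRKDC, the kinase of that pathway, fell by 0.61, and XRCC5, which encodes Ku80, fell from 2634, 2576, 2623 and 2603 to 2318, 2216, 2150.0 and 2179, a change of -0.24 ± 0.03. The polymerase genes POLL and POLM rose by 0.64 and 0.59.

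Cyclin D and CDK inhibitor genes moved unequally, with 2 of 14 tested higher and 6 lower. CDKN1A, which encodes the CDK inhibitor p21, rose from 563, 529, 522 and 521 to 1029.6, 1071, 1055 and 955, a log2 change of 0.94 ± 0.04 (SE; adjusted p = 9.7e-12), without overlap. CDKN1B, which encodes p27, had means of 621 and 589 (-0.08, adjusted p = 0.22), and CCND3, which encodes cyclin D3, fell by 0.90. Of 26 p53 targets, 12 rose and 4 fell, with a median of 0.26. GDF15, a stress-induced secreted factor, rose from 1513, 1478, 1492 and 1393 to 4437, 4079, 4044 and 3408, a log2 change of 1.44 ± 0.06 (SE; adjusted p = 1e-12). GADD45A, which responds to DNA damage, rose from 48.8, 42.6, 43.9 and 54.97 to 162, 122, 115 and 144, a change of 1.49 ± 0.12, and FAS, a death receptor that shares 380 exon bases with ACTA2, rose by 1.10. MDM2, the ligase that restrains p53, had 597, 549, 583 and 615 at low and 524, 527, 509.6 and 526 at high glucose and fell by 0.17 (adjusted p = 0.0047). It shares 572 exon bases with other genes.

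**Figure D4:**
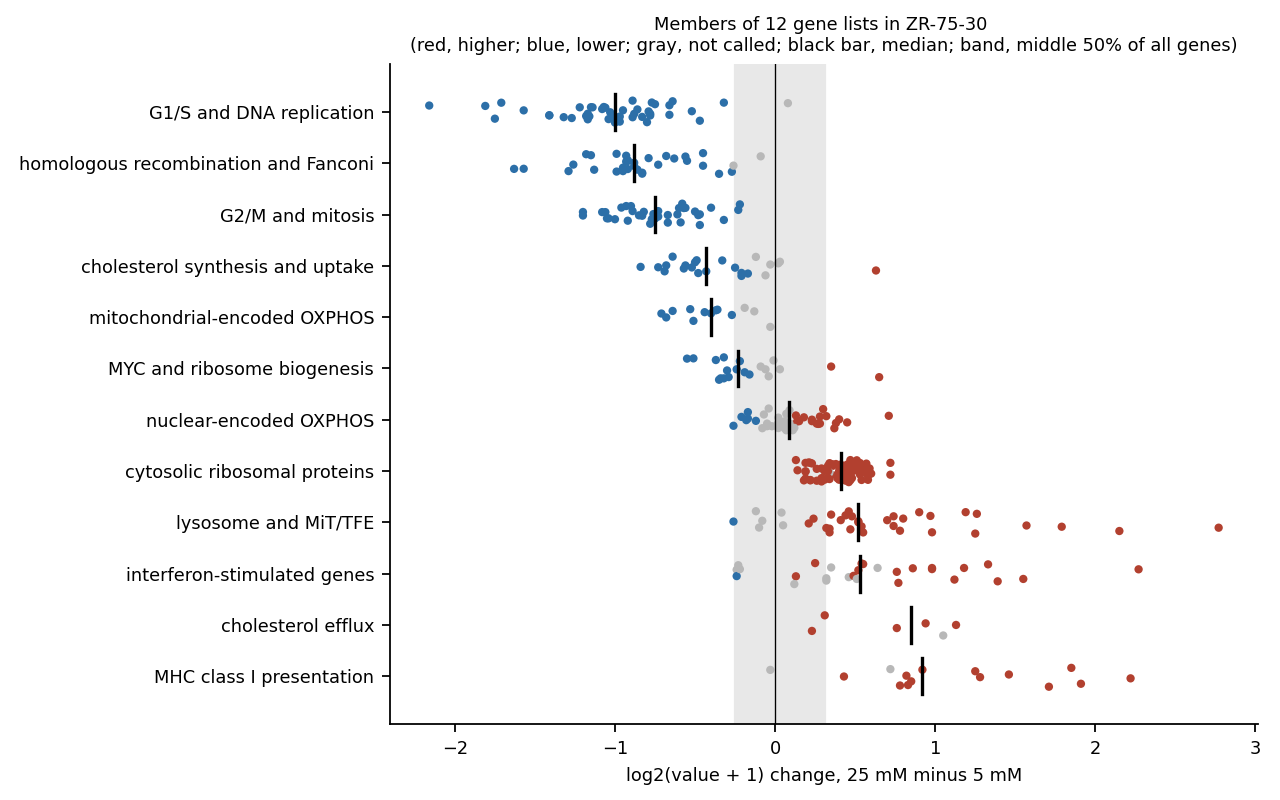
Log2(value + 1) change from 5 to 25 mM glucose of each tested member of 12 gene lists in ZR-75-30, with red points higher, blue points lower and gray points not called, black bars at the list medians and a band over the middle 50% of all tested genes. The G1/S, recombination and G2/M members sit left of zero, ribosomal protein genes form a narrow group to the right, and the MHC class I and lysosome lists spread widely to the right.

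Of 77 cytosolic ribosomal protein genes, 76 rose and none fell, with a median of 0.41 and a narrow range of 0.13 to 0.72. RPL5, a subunit that also binds MDM2, rose from 6100.0, 5737, 5805 and 6296 to 10219, 9554, 9969 and 9567, a log2 change of 0.72 ± 0.04 (SE; adjusted p = 6.6e-11), RPL21 by 0.72 and RPS16 by 0.60. Many of these genes have near-identical processed copies between which reads may be split. Ribosome assembly genes moved the other way, with 13 of 20 lower, 2 higher and a median of -0.23. NOLC1, a nucleolar chaperone, fell by 0.55 and POLR1B, a subunit of RNA polymerase I, by 0.51, whereas the nucleolar genes NPM1 and GNL3 rose by 0.65 and 0.35. MYC, the factor that drives many of them, had 699.7, 685, 732 and 652 and 687, 729, 708 and 698, a log2 change of 0.03 ± 0.04 (SE; adjusted p = 0.63), with overlapping values.

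Subunits of oxidative phosphorylation were counted by the genome that encodes them. Of the 13 genes encoded in mitochondrial DNA, 10 fell and none rose, with a median of -0.40. MT-CYB, the cytochrome b subunit of complex III, fell from 21170.3, 21071, 23229 and 23076 to 11272, 14117, 15577 and 16415, a log2 change of -0.64 ± 0.08 (SE; adjusted p = 3.5e-06), and high glucose replicate 1 was the lowest culture. MT-ATP8 fell by 0.71 and MT-ND3 by 0.68, whereas MT-CO1 had means of 114411 and 113039 (adjusted p = 0.81). Nuclear pseudogene copies of mitochondrial genes may take part of these reads. Of 44 nuclear-encoded subunit genes, 18 rose and 6 fell, with a median of 0.08. For complex I the count was 5 in each direction of 22, and for complexes II to V it was 13 higher and 1 lower of 22. UQCRC2, a core subunit of complex III, rose from 1199, 1201, 1199 and 1272 to 2129.9, 1954, 2022 and 1859, a log2 change of 0.71 ± 0.04 (SE; adjusted p = 1.8e-10). UQCRB and CYC1 of the same complex rose by 0.45 and 0.40.

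Genes of glucose use showed no common direction. Of 35 genes of glycolysis and pyruvate fate, 10 rose and 10 fell, with a median of 0.01, shares near those of all genes. SLC2A1, which encodes the transporter GLUT1, rose from 1616, 1621, 1566 and 1534 to 1965, 1926, 1981 and 1784, a log2 change of 0.27 ± 0.04 (SE; adjusted p = 1.5e-05), and HK2, hexokinase 2, from 1043, 1058, 1062 and 1006 to 1276, 1282, 1252 and 1176, a log2 change of 0.26 ± 0.04 (SE; adjusted p = 2.5e-05). The phosphofructokinase genes PFKP and PFKM rose by 0.68 and 0.50, and the regulatory PFKFB3 by 0.55, while PFKFB4 fell by 0.78. GAPDH and PGAM1, of the later steps, fell by 0.45 and 0.54. LDHA, which makes lactate, fell from 7079.5, 6869, 7160.5 and 7492 to 5604, 5196, 5479.7 and 5081, a change of -0.42 ± 0.04. SLC2A12, a minor transporter, rose by 1.46, with 2852 exon bases shared with TBPL1. PDK4, the starvation-induced brake on pyruvate oxidation, had means of 5.49 and 5.84 and was not called.

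Of 8 pentose phosphate pathway genes, 2 rose and 3 fell, with a median of 0.02. PGD, a dehydrogenase that yields NADPH, fell from 2960.5, 3045, 3105 and 2985 to 1724, 1770.0, 1832 and 1617, a log2 change of -0.80 ± 0.04 (SE; adjusted p = 1.5e-11). TKT, the transketolase of the non-oxidative arm, rose by 0.26, and H6PD, the reticular enzyme, by 0.38. Of 9 hexosamine and O-GlcNAc genes, 4 rose and 4 fell. GFPT1, the entry enzyme, rose by 0.17, and the next enzymes GNPNAT1, PGM3 and UAP1 fell by 0.60, 0.21 and 0.29. OGA, which removes O-GlcNAc, rose by 0.56 and OGT, which adds it, by 0.30. GNPNAT1 shares 1426 exon bases with another transcript.

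Lipid genes fell in synthesis and rose in efflux. Of 19 cholesterol synthesis genes, 17 fell and none rose, with a median of -0.49. SQLE, the squalene epoxidase gene, fell from 6741, 6518, 6750.4 and 6987 to 4315, 4151, 4164 and 4135, a log2 change of -0.69 ± 0.03 (SE; adjusted p = 2.1e-11), MVK, the mevalonate kinase gene, by 0.84 and MVD by 0.73. PMVK and SC5D were the genes not called. All but 1 of the 6 cholesterol efflux genes rose, with ABCA1 going from 44.9, 47.8, 54.1 and 39.7 to 109, 98.6, 90.1 and 116, a log2 change of 1.13 ± 0.12 (SE; adjusted p = 2.7e-07), and ABCG1 rising by 0.94. APOE was not called. Of 25 genes of fatty acid synthesis and storage, 13 fell and 4 rose. CPT1A, which admits fatty acids to mitochondria, fell from 1798, 1771, 1804 and 1758 to 961, 930.2, 944 and 913, a log2 change of -0.93 ± 0.03 (SE; adjusted p = 3.7e-13), ACLY, which makes cytosolic acetyl-CoA, by 0.75, and FADS2, a desaturase with 539 shared exon bases, by 0.81. SCD, the stearoyl-CoA desaturase, fell from 52175, 53086, 54227 and 52837 to 40746, 39032, 39328 and 39289, a change of -0.42 ± 0.04. FASN, the fatty acid synthase gene, fell by only 0.16 (adjusted p = 0.021), a call lost without low glucose replicate 2 (-0.13, adjusted p = 0.077), low glucose replicate 3 (-0.15, adjusted p = 0.062) or high glucose replicate 4 (-0.11, adjusted p = 0.05). The acyl-CoA synthetase gene ACSL1 and the triglyceride synthesis gene DGAT1 rose by 0.58 and 0.66.

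Lysosomal genes and the MiT/TFE factors that control them rose, with 30 of 36 higher, 1 lower and a median of 0.52. GPNMB (chromosome 7, from 23275586 to 23314727), a lysosomal and surface glycoprotein, rose from 38.8, 40.4, 34.8 and 35.9 to 254, 271, 255 and 266, a log2 change of 2.77 ± 0.08 (SE; adjusted p = 2.4e-14). The protease genes CTSS and CTSB rose from 23.8, 20.5, 22.8 and 17.6 to 96.3, 85.1, 106 and 100.1 and from 709, 759, 719 and 759 to 1873, 1728, 1788 and 1626, changes of 2.15 ± 0.14 and 1.25 ± 0.04, and CTSL, listed as CTSL1, rose by 1.79. No culture of the high glucose condition fell within the low glucose range for these genes. RRAGD, a GTPase that tells mTORC1 of amino acids, rose by 1.57, and MITF, a factor of the family, by 0.97. GLA, an alpha-galactosidase, was the gene that fell, by 0.26. CD68 had 4.99, 6.82, 6.27 and 4.58 at low and 36.97, 36.5, 33.6 and 43.9 at high glucose, a log2 change of 2.55 ± 0.21 (SE; adjusted p = 1.3e-08), and shares 1913 exon bases with other genes. The other measured leukocyte markers, CD14 and LYZ, stayed under the limit of detection in both conditions.

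MHC class I genes, whose products show peptides to T cells, rose in 13 of 15 cases, with none lower and a median of 0.92. B2M (chromosome 15, from 45003556 to 45011049), the shared light chain, rose from 2717, 2559.6, 2623 and 2799 to 5178, 5130.5, 5119 and 4856, a log2 change of 0.92 ± 0.04 (SE; adjusted p = 1e-12). HLA-B rose by 1.46, HLA-E by 1.25 and HLA-C by 0.82, genes whose reads are hard to assign because their alleles and copies resemble each other. NLRC5, the activator of these genes, rose from 51.5, 41.5, 47.9 and 41.99 to 150.0, 177, 172 and 169, a log2 change of 1.85 ± 0.10 (SE; adjusted p = 4.5e-11). PSMB8, an immunoproteasome subunit, rose by 1.91 and HLA-F by 2.22, and they share 741 and 792 exon bases with neighbours. PSMB9 and ERAP1 were not called. Of 28 interferon-stimulated genes, 17 rose and 1, ISG20, fell, with a median of 0.53. IFIT1, which binds viral RNA, went from 3.32, 11.4, 11.4 and 3.82 to 38.5, 27.7, 34.9 and 41.8, a log2 change of 2.27 ± 0.32 (SE; adjusted p = 9.9e-06). IRF1, an interferon factor that shares 2805 exon bases with C5orf56, rose by 1.39 and IFITM1 by 1.33. ISG15, OAS2, OAS3 and BST2 were among the 10 not called.

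Of 18 tested NF-kappaB and TNF genes, 10 rose and 2 fell, with a median of 0.64. TNFAIP2, a TNF-induced gene, rose by 1.10, RELB, an NF-kappaB subunit, by 1.05 and the deubiquitinase gene TNFAIP3 by 0.98. NFKBIA, the inhibitor and feedback target, had 239, 218, 219 and 229 and 276, 263, 272 and 278, a log2 change of 0.27 ± 0.05 (SE; adjusted p = 0.0006). The cytokine genes IL6, CXCL8 and CXCL2 were too low to be tested, so a change in them was not detectable at this depth. Of 13 secreted defence and acute-phase genes, 6 rose and 1, CAMP, fell. A2M, a protease inhibitor, rose from a mean of 54.97 to 104 (0.91, adjusted p = 9.2e-07).

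The growth factor receptors moved in both directions, with 9 of 22 receptor, ligand and adaptor genes higher and 4 lower. FGFR4 had 711, 694, 755 and 666 at low and 256, 272, 284 and 235 at high glucose, a log2 change of -1.43 ± 0.06 (SE; adjusted p = 1.2e-12), and the conditions were widely apart. INSR, the insulin receptor, rose from 189.5, 203, 199 and 190.1 to 382, 352, 346 and 383, a log2 change of 0.90 ± 0.06 (SE; adjusted p = 3.2e-10), and IGF1R by 0.33, beside the rise of IRS2. ERBB2 had 68889, 70873, 72886 and 63593 and 58270.4, 61636, 62557 and 55500.5, a called fall of 0.21 (adjusted p = 0.004), and ERBB3, its partner, a rise of 0.13 (adjusted p = 0.0031). ERBB2 shares 715 exon bases with its neighbours. AREG, an EGFR ligand, rose from 14.4, 19.3, 0 and 6.87 to 47.4, 42.5, 45.05 and 51.4, a log2 change of 2.75 ± 0.60 (SE; adjusted p = 0.00097), but its low glucose cultures were uneven and the change was 1.81 without low glucose replicate 3. Of the 11 genes of the 17q12 region that is amplified with ERBB2, 4 rose and 4 fell. GRB7, an adaptor of ERBB2, rose from 3881, 3944, 4094 and 3634 to 5765, 6155, 6096 and 5505, a log2 change of 0.60 ± 0.04 (SE; adjusted p = 2.6e-09), its neighbour MIEN1, with 571 shared exon bases, by 0.61 and TCAP by 1.64, while PPP1R1B fell by 0.55. Of the IGF-binding proteins, IGFBP5 fell from 65036, 66086, 67154 and 62739 to 47815, 46364, 46773 and 45094, a change of -0.49 ± 0.05, and IGFBP4 rose by 0.54.

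Immediate early genes, which growth factors switch on within minutes, divided evenly, with 8 of 23 higher, 8 lower and a median of 0.01. FOS fell from 181, 189.9, 204 and 191 to 40.6, 64.8, 61.2 and 63.05, a log2 change of -1.74 ± 0.12 (SE; adjusted p = 1.3e-09). EGR1 fell from 1849.8, 1968, 1970.4 and 1870.5 to 771, 838, 849.5 and 845, a log2 change of -1.21 ± 0.04 (SE; adjusted p = 1e-13), and JUN, JUNB and FOSB by 0.90, 0.82 and 1.38. ATF3, JUND and the phosphatase gene DUSP5 rose instead, DUSP5 from 829, 862, 884 and 847 to 2058, 2040.1, 2011 and 1871 and JUND by 0.96.

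Stress programs were also split. In the ATF4 amino acid response, 10 of 23 rose and 8 fell, with a median of -0.02. DDIT3, which encodes CHOP, rose from 83.1, 75.1, 94.6 and 77.1 to 195, 186, 186 and 185, a log2 change of 1.19 ± 0.08 (SE; adjusted p = 1.5e-09), whereas PHGDH, the entry enzyme of serine synthesis, fell from 247, 256, 277 and 243 to 108, 125, 99.02 and 89.1, a log2 change of -1.28 ± 0.09 (SE; adjusted p = 1.3e-09). ASNS, the asparagine synthetase gene, fell from 318, 297, 297 and 311 to 181, 214, 196 and 181, a change of -0.66 ± 0.06. DDIT3 shares 413 exon bases with MARS and MBD6. Of 22 genes of endoplasmic reticulum chaperones and sensors, 8 rose and 9 fell, with HSPA5, the chaperone BiP, at 3451, 3251, 3462 and 3540.2 and 4138, 3937, 4142 and 3745, a log2 change of 0.22 ± 0.04 (SE; adjusted p = 0.00019). Among 12 heat shock genes, 4 rose and 1 fell. HSPB1, the small chaperone HSP27, rose from 609, 569, 619 and 599 to 1595, 1502, 1597 and 1384, a log2 change of 1.34 ± 0.05 (SE; adjusted p = 1.7e-13), and HSF1 by 0.47. Of 19 NRF2 antioxidant genes, 8 rose and 3 fell. HMOX1, the heme oxygenase gene, rose from 148, 142, 133 and 147 to 259, 270.0, 283 and 244, a log2 change of 0.88 ± 0.07 (SE; adjusted p = 3e-09), and TXNRD1, thioredoxin reductase, by 0.27. SLC7A11, the cystine transporter, fell from 562, 568, 554 and 551 to 307, 259, 284 and 293, a log2 change of -0.97 ± 0.05 (SE; adjusted p = 5.6e-11). It shares 865 exon bases with its antisense gene.

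Hypoxia-inducible genes rose in 12 of 21 cases and fell in 4. Beside ADM, NDRG1, a stress-induced gene, rose from 1107, 1044, 1065 and 1001 to 2699, 2602, 2739.8 and 2598, a log2 change of 1.33 ± 0.04 (SE; adjusted p = 1.3e-14), and MXI1, a MYC antagonist, rose from a mean of 212 to 502. CA9, a carbonic anhydrase that marks hypoxia, had 1.66, 6.26, 5.13 and 3.82 at low and 0, 0, 0.850 and 0 at high glucose, 28 against 2 reads, and fell by 2.07 (adjusted p = 0.00041). Of 8 aryl hydrocarbon receptor genes, 5 rose and 2 fell. CYP1A1, the classic target of that receptor, had 1.11, 2.84, 1.71 and 0.763 at low and 19.8, 16.2, 16.1 and 23.99 at high glucose, a log2 change of 2.99 ± 0.30 (SE; adjusted p = 1.9e-07) and a read ratio of 11.3 (95% interval 6.11 to 23.1). Its repressor gene AHRR rose from a mean of 3.53 to 13.7 (1.74, adjusted p = 0.00027), and TIPARP, another target, by 0.91. The receptor's core string GCGTG was in the CYP1A1 promoter window 57 bases before the start and in 36.5% of all windows, on either strand.

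Of 10 genes of osmolyte transport and the sodium pump, 9 rose and 1 fell, with a median of 0.35. SLC6A6, the taurine transporter, rose from 336, 354, 349.8 and 319 to 814, 884, 852 and 847, a log2 change of 1.32 ± 0.05 (SE; adjusted p = 1.5e-13), with 243 exon bases shared with GRIP2. SLC5A3, the inositol transporter, rose from 179, 187, 156 and 181 to 206, 247, 244 and 285, a log2 change of 0.47 ± 0.09 (SE; adjusted p = 0.00016), and the kinase gene SGK1 by 1.54. AKR1B1, the aldose reductase that makes sorbitol from glucose, was the gene that fell, from 13.3, 10.8, 14.2 and 12.98 to 4.69, 6.08, 6.80 and 4.11, a log2 change of -1.12 ± 0.25 (SE; adjusted p = 0.0012). Since no culture had 5 mM glucose with mannitol, glucose and osmolarity cannot be told apart here. Of 6 metallothionein and zinc genes, 3 fell. MT2A, which binds zinc and copper, fell from 1515, 1481, 1508 and 1305 to 581, 544, 530.4 and 443, a log2 change of -1.47 ± 0.07 (SE; adjusted p = 5.5e-12), MT1E by 0.89 and MT1X by 0.68, genes whose reads may be split between near-identical copies.

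Of 34 mesenchymal genes, 11 were too low to be tested. Of 23 tested, 9 rose and 4 fell. VIM, which encodes vimentin, had 0.554, 0.569, 1.14 and 0.763 at low and 1.04, 1.35, 0 and 0.685 at high glucose, and TWIST1 had 1.66, 1.71, 2.28 and 0 and 2.08, 1.35, 1.70 and 0, both under or near the limit of detection in every culture. ZEB1 had 1.11, 0, 0 and 0 and 1.04, 2.02, 1.70 and 0.685 and was not called (adjusted p = 0.08), though it was called without low glucose replicate 1 (1.20, adjusted p = 0.036). SNAI1, the repressor Snail, was the only factor called, with 4.43, 7.39, 6.84 and 6.87 at low and 8.85, 10.8, 10.2 and 11.7 at high glucose, a log2 change of 0.64 ± 0.25 (SE; adjusted p = 0.048), a call lost with edgeR (adjusted p = 0.068). Rises were found in CCN2, listed as CTGF, a matrix protein that went from 65.4, 77.9, 71.2 and 87.8 to 252, 239.6, 259 and 239.9, a log2 change of 1.71 ± 0.09 (SE; adjusted p = 2.1e-11), and in TGFB2, a TGF-beta ligand, which went from 2.77, 5.12, 0.570 and 3.05 to 15.1, 18.2, 14.9 and 19.2, a log2 change of 2.35 ± 0.35 (SE; adjusted p = 2e-05). ACTA2, smooth muscle actin, rose by 1.90 and shares 380 exon bases with FAS. Among 20 epithelial junction genes, 5 rose and 8 fell, with CDH1 at 60.4, 61.99, 48.99 and 51.1 and 53.6, 53.3, 61.6 and 57.6.

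CD44, the hyaluronan receptor used as a marker of stem-like cells, rose from 377, 380.4, 405 and 419.9 to 1209.7, 1173, 1133 and 1156, a log2 change of 1.56 ± 0.04 (SE; adjusted p = 1.2e-14), and the conditions were widely apart. Of the 11 stemness genes tested, however, 2 rose and 2 fell, with SOX9 falling by 0.43 and ALDH1A1 by 0.49. The hedgehog list had 7 tested genes, and 2 rose, 1 fell and 4 were not called (all tested genes, 23.4% higher and 22.7% lower). In the hedgehog pathway SMO and GLI3 rose by 0.72 and 0.47, and GLI1, its target, had 6.65, 5.12, 5.70 and 5.34 and 2.60, 0.675, 4.67 and 0 and fell by 1.46 (adjusted p = 0.011), a call lost with edgeR (adjusted p = 0.056) and DESeq2 (adjusted p = 0.07). Of 13 Notch genes, 2 rose and none fell. NOTCH2, a receptor, rose by 0.27, and RBPJ, the nuclear effector, by 0.13 (adjusted p = 0.032), a call lost in 6 of the 8 fits without 1 culture and with DESeq2 (adjusted p = 0.067). HES1, the main target, had 264, 238, 220.5 and 262 and 229.7, 231, 229.5 and 222, a log2 change of -0.11 ± 0.06 (SE; adjusted p = 0.18). Of 28 myogenesis genes, 18 were found and only 12 were tested. Of these 12, 8 rose and none fell, with a median of 0.74. A weakly expressed gene could be tested through its high glucose cultures alone, which may raise this count. TNNC1, a troponin gene, rose from a mean of 4.50 to 21.4 (2.07, adjusted p = 1.7e-05), CRYAB, a small chaperone that shares 1194 exon bases with its neighbours, by 1.59 and CKB, brain creatine kinase, by 0.94. The myogenic factors MYOD1 and MYOG were not analysed here. Of 11 retinoic acid genes, 4 rose and 1 fell, with the reductase gene DHRS3 rising by 1.27. The pregnancy-specific glycoprotein genes PSG4 and PSG9 had 0.554, 0, 0 and 0 and 0, 1.14, 0 and 0 at low and 14.1, 18.2, 14.9 and 16.4 and 8.33, 6.75, 14.4 and 10.97 at high glucose, 1 and 2 reads against 113 and 76, and log2 changes of 3.91 ± 0.31 and 3.15 ± 0.37. Only 2 of the 10 listed genes of this family were tested, and 7 were found. Both tested genes met the filter through their high glucose cultures, so at such low glucose values they could only rise. Of the CEACAM relatives of that family, CEACAM6 fell from a mean of 11177 to 7922 (-0.50, adjusted p = 2.8e-09) and CEACAM1 rose by 0.49.

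To ask where ZR-75-30 differed from the other ER+ lines, its response was set against the mean response of MDA-MB-175 and HCC1500 in 1 limma model over all 24 samples. In HCC1500, high glucose replicate 3 correlated with its own condition at only 0.944, and its 3 companions at 0.976 to 0.977, or 0.993 once it was left out, against 0.990 or more in the other groups on this measure. Counts of differing genes are therefore also given without it. The responses differed for 3405 of the 15834 genes (21.5%), and for 6422 (40.6%) without that culture, of which 3397 were called in both. The difference was higher in ZR-75-30 for 1980 genes and lower for 1425, and for 3816 and 2606 without it.

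Differences were ranked among genes called in this contrast and in ZR-75-30 that had a mean of at least 20 there in the higher condition. No level was required in MDA-MB-175 or HCC1500, where log2(value + 1) understates the change of a weakly expressed gene. Whether a difference came from low expression in those lines was not tested. CHI3L1 showed the largest positive difference, since it changed by 3.92 in ZR-75-30, 0.18 in MDA-MB-175 and 0.15 in HCC1500, a difference of 3.76 ± 0.35 (SE; adjusted p = 9e-08). AGT, PGM5 and PPP1R3B, a glycogen-targeting subunit of protein phosphatase, differed by 3.09, 2.83 and 3.01. PPP1R3B had 7.76, 9.67, 10.2 and 5.34 at low and 57.8, 54.7, 46.8 and 69.2 at high glucose in ZR-75-30, a log2 change of 2.67 ± 0.21 (SE; adjusted p = 6.9e-09), against -0.06 and -0.61 in the other lines. IFIT1 rose by 2.27 in ZR-75-30 where its changes were -0.71 and -0.78 elsewhere, a difference of 3.02 ± 0.38 (SE; adjusted p = 4.7e-06). On the negative side, DIO2 changed by -2.10, 0.52 and 2.19 in ZR-75-30, MDA-MB-175 and HCC1500, a difference of -3.45 ± 0.24 (SE; adjusted p = 1.5e-09). FOS changed by -1.74, -0.65 and 1.74 in the same order, a difference of -2.29 ± 0.16 (SE; adjusted p = 2.5e-09). MUC2 and TFF1, which fell by 2.62 and 2.20 in ZR-75-30, changed by -0.39 and -0.15 in MDA-MB-175 and by -0.12 and 0.23 in HCC1500, differences of -2.37 ± 0.25 (SE; adjusted p = 4.6e-07) and -2.24 ± 0.26 (SE; adjusted p = 2.3e-06). CAMP differed by -2.40 ± 0.34 (SE; adjusted p = 2.6e-05). Each of the 10 differences was chosen as called with all samples. Without the HCC1500 culture they stayed called, at 2.81 to 3.74 for the positive and -3.47 to -2.04 for the negative ones. Both fits share the other samples, so the second is not separate support.

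No difference was called for some of the most prominent genes, which does not show that the lines respond alike. The TXNIP response differed from the mean of the others by 0.06 ± 0.05 (SE; adjusted p = 0.5), or 0.07 (adjusted p = 0.14) without the HCC1500 culture, from 0.76 in ZR-75-30 against 0.39 and 1.02. The GDF15 response differed by -0.26 ± 0.23 (SE; adjusted p = 0.49), or -0.10 (adjusted p = 0.46) without it. FGFR4 changed by -1.43, -1.04 and -1.70, a difference of -0.06 ± 0.18 (SE; adjusted p = 0.86), or 0.05 (adjusted p = 0.7) without it.

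**Figure D5:**
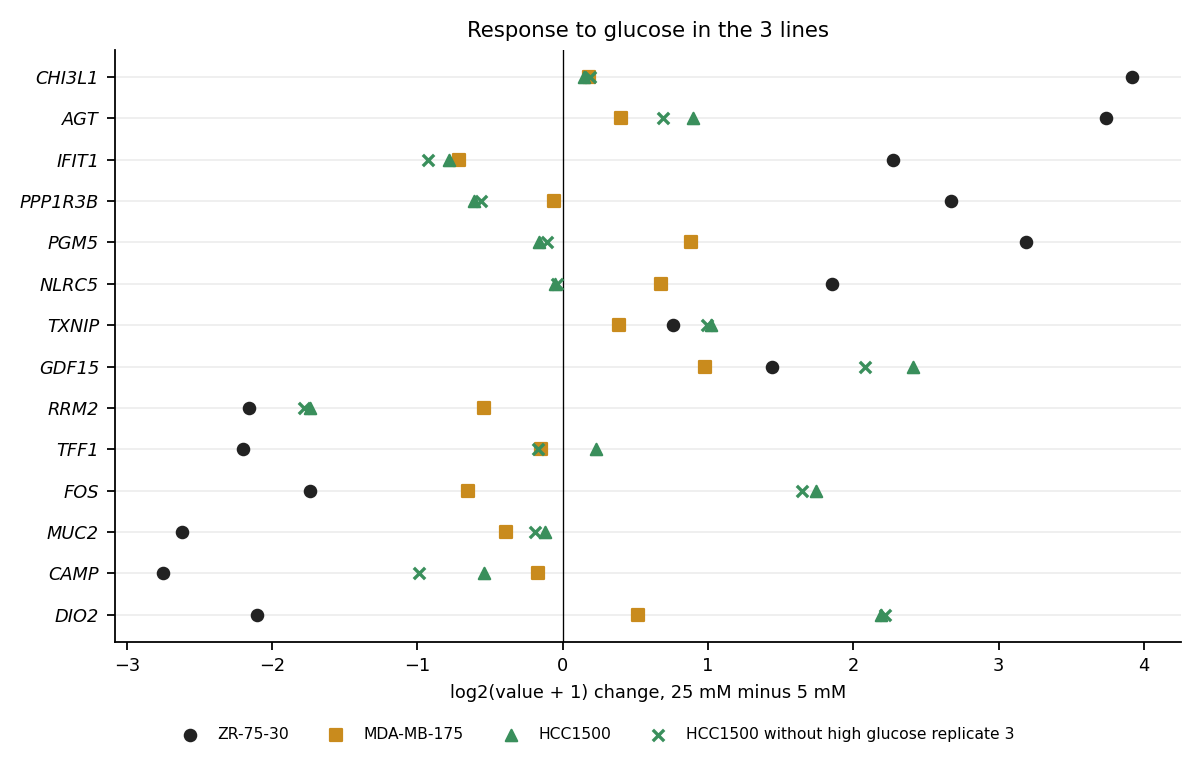
Log2(value + 1) change from 5 to 25 mM glucose of 14 genes in ZR-75-30 (black circles), MDA-MB-175 (orange squares) and HCC1500 (green triangles, and crosses without high glucose replicate 3). CHI3L1, AGT and IFIT1 lie far to the right, and MUC2, TFF1 and DIO2 far to the left, in ZR-75-30, whereas TXNIP is between the other lines.

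By list, the interferon-stimulated and MHC class I genes differed toward ZR-75-30. Over all 15834 genes, differences were called for 21.5% (1980 higher and 1425 lower). Without the HCC1500 culture they were called for 40.6% (3816 higher and 2606 lower), so list counts also grow when it is left out. The median changes of the 28 interferon-stimulated genes were 0.53 in ZR-75-30, -0.02 in MDA-MB-175 and -0.48 in HCC1500 (-0.59 without its high glucose replicate 3), and the difference was called higher for 15 and lower for 1 of them (22 and 1 without the HCC1500 culture). For MHC class I the medians were 0.92, 0.26 and -0.02 (-0.21), with 10 of 15 differences higher and none lower (13 and none). B2M was not among them with all samples, at 0.10 ± 0.14 (SE; adjusted p = 0.65), and was without that culture (0.20, adjusted p = 0.00028). The mitochondrially encoded subunits had medians of -0.40, 0.38 and 0.22, with 11 of 13 differences lower and none higher (13 without that culture). The G1/S list had medians of -1.0, -0.31 and -0.80, and 26 of 44 differences were lower (34 lower and 1 higher without the culture). The G2/M list had medians of -0.75, -0.48 and -1.63, and 12 of 37 differences were higher (21 higher and 1 lower without the culture). Homologous recombination and Fanconi genes had medians of -0.88, -0.26 and -0.72, and 15 of 33 differences were lower (19). Ribosome assembly genes had medians of -0.23, -0.10 and 0.49, and 10 of 20 differences were lower (15).

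For the ribosomal proteins the count rested on that 1 culture. With it the medians were 0.41, 0.02 and 0.50 and none of the 77 differences was called by limma, but without it the HCC1500 median was 0.13 and 67 differences were called, all higher in ZR-75-30. For the nuclear-encoded subunits the counts were 3 of 44 differences called with that culture and 28 without it. The shares of all tested genes were 21.5% with it and 40.6% without it, in either direction. The lysosomal list, with medians of 0.52, 0.27 and 0.37, had 12 of 36 differences higher and 3 lower (21 and 6), and the AP-1 list had 2 of 23 higher and 9 lower (5 and 9).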

How the data were processed

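Illumina HiSeq RNA-Seq of 8 ZR-75-30 cultures, 4 in each of 2 glucose conditions taken from the sample titles, was analysed, with 16 cultures of MDA-MB-175 and HCC1500 for the comparison of lines. The study extracted RNA with RNeasy kits, and its methods name Trimmomatic, TopHat with hg19 and Ensembl v70 genes, DESeq2 and edgeR, whereas the submitters' processing notes name edgeR and hg38. The authors deposited 1 signal per gene and sample, which proved to be whole reads divided by 1 unstated factor per sample (tolerance 0.01), and not CPM as the design had assumed. All 18889 gene IDs were read from the end of each line because 9 symbols were split over cells.

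Log2(value + 1) was tested with limma 3.58.1 (R 4.3.3, intensity trend, no covariate, two-sided) at a Benjamini-Hochberg adjusted p under 0.05 over genes that reached 0.5 in 4 or more cultures. The difference between lines was an interaction contrast over 6 group means in 24 samples. Alternatives were edgeR 4.0.16 and DESeq2 1.42.0 on the recovered reads, other pseudocounts, filters, scalings and thresholds, a fit on all samples, a replicate block and leaving out each culture. The scripts were tested on simulated data. Read ratios are adjusted for the factors of the cultures and carry exact 95% intervals that cover counting error only.

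The members, gene lists and tests were chosen with earlier results of these data known, so no list is independent evidence. Named genes were a list of anchor genes, the 12 strongest rises and 12 strongest falls that were called, whose conditions did not overlap and whose higher mean was at least 20, the 6 largest of each among genes with a mean of at least 1000, up to 3 called members of each list with the largest change and a mean of at least 10, and the 5 largest positive and 5 largest negative differences between lines. Results for some of these genes are not reported here. Other list members in the text were picked with their values in view. Gene positions are on GRCh37 and come from GENCODE 44 lifted to that build, which matched 96.3% of gene IDs; promoters are RefSeq GRCh38.p14. Same-numbered cultures of the 2 conditions had deviations that correlated by only 0.02 to 0.07, so replicate numbers were not taken as pairs.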

Additional observations from a re-analysis of the deposited data

Results flagged for a closer look

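Among 390 groups of 4 cultures, those of the 195 of 204 named genes whose results are reported here, in 2 conditions, 21 held 1 culture whose gap to the nearest other exceeded Dixon's 95% critical share of the group's range. Chance flags about 1 in 20 groups, and 21 of 390 is close to that rate. At low glucose, replicate 1 was highest for TXNIP (648.2), CLCA2 (318), ZEB1 (1.108) and OVOL1 (62.05). Low glucose replicate 4 was lowest for SPDEF (3689.0), TFF3 (8785.1) and MT2A (1304.7) and highest for PGR (0.7635, the worth of 1 read) and UQCRC2 (1271.9). At high glucose, replicate 1 was highest for DDIT3 (195.3), SQLE (4314.6) and VSIG1 (6.249) and lowest for FOS (40.62). High glucose replicate 2 was highest for CLCA2 (76.28) and MYB (101.3) and lowest for CRYAB (17.55), and replicate 3 was lowest for MDM2 (509.6). High glucose replicate 4 was lowest for AGT (104.9), SPDEF (3957.9), FASN (17176.8) and HES1 (222.1).

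The response differed from the mean of MDA-MB-175 and HCC1500, by the limma contrast itself, for 10 genes named by the size of the difference among genes called in it. It was higher in ZR-75-30 for CHI3L1 (3.76), AGT (3.09), IFIT1 (3.02), PPP1R3B (3.01) and PGM5 (2.83), all on the log2(value + 1) scale. It was lower for DIO2 (-3.45), CAMP (-2.4), MUC2 (-2.37), FOS (-2.29) and TFF1 (-2.24).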

How the results depend on the processing

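For the glucose response of ZR-75-30, the number of called genes, 7290 as reported, stayed between 6585 and 7506 with edgeR (7397, of which 7158 shared), DESeq2 (6585, of which 6543 shared), other pseudocounts, filters, scalings or no intensity trend, and was 5213 in a fit on all 24 samples and 5658 at an adjusted p under 0.01. Requiring a log2 change of at least 1 in size left 1040 genes, 704 higher and 336 lower. Without 1 culture at a time it ran from 6747 to 7150. With the replicate block it was 7542, and the block added 2 calls among the named genes, ESR1 (adjusted p = 0.033) among them, and lost none; since same-numbered cultures share only a number, this is not a paired result. Rescaling to the same total moved the median change of all genes by -0.036. Among 204 named genes, 91 kept their call and direction in all 22 settings, 4308 of 4484 values did so, and none reversed. The fit on all 24 samples lost 20 of these calls, and leaving out a culture changed the call of 8 genes, among them RBPJ, a Notch effector that lost its small rise of 0.13 in 6 of those fits. Of 2160 list counts, 2073 stayed within 1.5 times.

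The glucose response of ZR-75-30 minus the mean response of MDA-MB-175 and HCC1500 was more sensitive. It was called for 3405 genes against the mean of both, 1954 against MDA-MB-175 alone, 4363 against HCC1500 alone and 6422 without HCC1500 high glucose replicate 3. Against HCC1500 alone and without that culture, an alternative chosen after seeing the data, it was called for 7076, and without each ZR-75-30 culture in turn, also chosen after seeing the data, for 2990 to 3104. The replicate block gave 3016. The deposited values of HCC1500 high glucose replicate 3 summed to 7319781, against 5559394, 5578758 and 5604083 in replicates 1, 2 and 4 of its condition. Why that culture differs was not tested.

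Fewer than 3 reads, worth 1.275 to 2.29, could not be told from none, so changes in the 3055 genes not tested were not detectable at this depth. The factor behind the deposited values, the strand setting of the counting and the origin of the cultures are not given in the sources used here. No osmotic control was analysed here.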
